A study of Mus musculus with 8 samples.

Results

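The genes described here are the nuclear-encoded enzymes that charge, cut and modify the tRNAs of mitochondria, measured by RNA seq in mouse cochlea. They were chosen by name: 35 symbols were listed, of which 34 matched a row among the 47628 entries that name a gene, and the further 1 was not analysed here. The study compared 4 WT mice (animals 4, 5, 6 and 8) with 4 *Opa1*+/- mice (animals 2 and 7 and a pair with 3-digit animal numbers, called A and B here in ascending order), aged 21 days according to its methods, all untreated and all on a mixed C57BL/6J × 129Sv/Pas background. The *Opa1*+/- mice carry a knock-in of a human *OPA1* deletion of the bases TTAG on 1 allele in every cell, and only heterozygotes can be studied because homozygous embryos die in utero. The WT mice were littermates without the allele. RNA came from isolated cochleae, the study used both sexes, and the labels do not give the sex of each mouse. The libraries are bulk samples, so fewer cells of a type and less RNA per cell cannot be told apart in any value below.

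Mitochondria translate a few respiratory chain proteins with their own tRNAs, which are encoded in the mitochondrial genome, whereas every enzyme that matures and charges these tRNAs is encoded in the nucleus and imported. The tRNAs are cut out of long transcripts at their 5′ end by mitochondrial RNase P and at their 3′ end by *Elac2*, receive a CCA tail from *Trnt1*, are modified at defined bases, and are then charged by an aminoacyl-tRNA synthetase for each amino acid. The pathway is of interest in the inner ear because recessive variants of human *HARS2* and *LARS2* cause Perrault syndrome, in which sensorineural deafness is the shared feature, and variants of *MTO1*, *GTPBP3*, *TRMU* and *PUS1* cause other disorders of mitochondrial translation.

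The tRNAs on which most of these enzymes act are shown first, since the position each enzyme recognizes can be read in them. They are the DNA-sense sequences of the GENCODE vM21 transcripts (GRCm38, chromosome M), 5′ to 3′, with the anticodon, bases 34 to 36 in standard tRNA numbering, in capitals. *mt-Th* and both leucine tRNAs are the substrates of *Hars2* and *Lars2*, both serine tRNAs those of *Sars2*, *mt-Tk*, *mt-Te* and *mt-Tq* carry the wobble base modified by *Mto1*, *Gtpbp3* and *Trmu*, and *mt-Tm* is the substrate of *Nsun3* and *Mtfmt*.
mt-Th, chrM:11546-11612, plus strand: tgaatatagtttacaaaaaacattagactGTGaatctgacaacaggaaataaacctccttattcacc
mt-Tl1, chrM:2676-2750, plus strand: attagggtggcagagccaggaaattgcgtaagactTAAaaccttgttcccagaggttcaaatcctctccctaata
mt-Tl2, chrM:11671-11741, plus strand: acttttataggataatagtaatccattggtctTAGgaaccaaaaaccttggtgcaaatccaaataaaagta
mt-Ts1, chrM:6870-6938, minus strand: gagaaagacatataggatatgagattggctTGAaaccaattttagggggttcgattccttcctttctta
mt-Ts2, chrM:11613-11671, plus strand: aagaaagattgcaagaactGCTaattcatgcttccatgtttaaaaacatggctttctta
mt-Tk, chrM:7700-7764, plus strand: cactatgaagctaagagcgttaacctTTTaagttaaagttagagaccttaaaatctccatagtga
mt-Te, chrM:14071-14139, minus strand: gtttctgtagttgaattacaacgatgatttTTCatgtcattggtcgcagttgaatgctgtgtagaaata
mt-Tq, chrM:3772-3842, minus strand: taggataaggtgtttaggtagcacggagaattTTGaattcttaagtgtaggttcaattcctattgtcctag
mt-Tm, chrM:3845-3913, plus strand: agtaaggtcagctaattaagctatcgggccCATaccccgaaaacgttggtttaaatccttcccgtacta

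Of the 22 mitochondrial tRNA genes, which are 59 to 75 bases long, 19 have a purine at base 9, counted from the 5′ end. This is the base methylated by the complex of *Trmt10c* and *Hsd17b10*. The first anticodon base is T in 13 genes, G in 8 and C in 1. That single C, in *mt-Tm*, is the base modified by *Nsun3*.

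The genotype labels were checked on *Opa1* itself. Its level, as CPM (counts scaled to the library size, here with TMM factors), had a WT mean of 119.7 ± 6.09 and an *Opa1*+/- mean of 65.6 ± 4.42 (SD, n = 4 each), and the groups did not overlap. The log2 fold change of *Opa1*+/- over WT was −0.87 ± 0.068 (SE), with a p of 0.00515 by the quasi-likelihood test of edgeR, adjusted over 19366 genes by the method of Benjamini and Hochberg. Counts on named genes were 17001431 to 20828030 per mouse in WT and 15978051 to 20204154 in *Opa1*+/- mice. Markers of hair cells, spiral ganglion neurons, Schwann cells and stria vascularis were all detected, none of them at 0 in the cochlear libraries, as were markers of bone, red cells, marrow, muscle and macrophages.

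All 34 enzymes passed the minimum mean normalized count of 10, with 59 to 3463 counts per gene and mouse. No enzyme was called at an adjusted p under 0.05, against 5 of 19366 genes tested (0.0258%), of which 4 were higher (0.0207%) and 1 lower (0.00516%) in *Opa1*+/- mice. The lowest adjusted p among the enzymes was 0.733, for *Sars2*. At an unadjusted p under 0.05, 1 of 34 enzymes was higher in *Opa1*+/- mice (2.94%) and none was lower, while 6.72% of all genes passed that level, 3.51% higher and 3.22% lower. With total counts in place of TMM the 1 enzyme under that level was *Trmt10c*, which was lower, and no longer *Sars2*. DESeq2's Wald test gave 0 enzymes at that unadjusted level, beside 5.62% of all genes, and limma voom 2 (*Sars2* and *Trmt10c*, 5.88%), beside 10.3%, and neither called any enzyme after adjustment. These shares rest on 0 to 2 of 34 enzymes in the same mice, and their difference from the share of all genes was not tested.

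The folds were small and of both signs. Their median over the 34 enzymes was 0.015 on the log2 scale, beside 4.0e-04 over all genes tested, with 20 positive and 14 negative values. The sign of this median was not stable. With total counts in place of TMM it was −0.012 over the enzymes (15 positive and 19 negative) and −0.028 over all genes, and without WT mouse 8 it was −0.018 over the enzymes (14 positive and 20 negative). With TMM and all 8 mice, negative values made up 41.2% of the enzymes and 49.9% of all genes. The lowest fold was −0.18 (*Nars2*) and the highest 0.21 (*Sars2*), and 33 of 34 lay within 0.2 of 0 in either direction, as did 77.3% of all genes. The median standard error was 0.103 for the enzymes and 0.120 for all genes.

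The intervals state what size of change these 4 against 4 mice leave possible. For 33 of the 34 enzymes the 95% interval of the log2 fold change lay within 0.5 of 0, and for 18 it lay within 0.3. The most negative bound was −0.55 for *Nars2*, a difference of −31.5% from WT, and the most positive was 0.41 for *Sars2*, a difference of 32.6%. The interval of *Opa1* ran from −1.02 to −0.72 and met none of these.

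**Figure D1:**
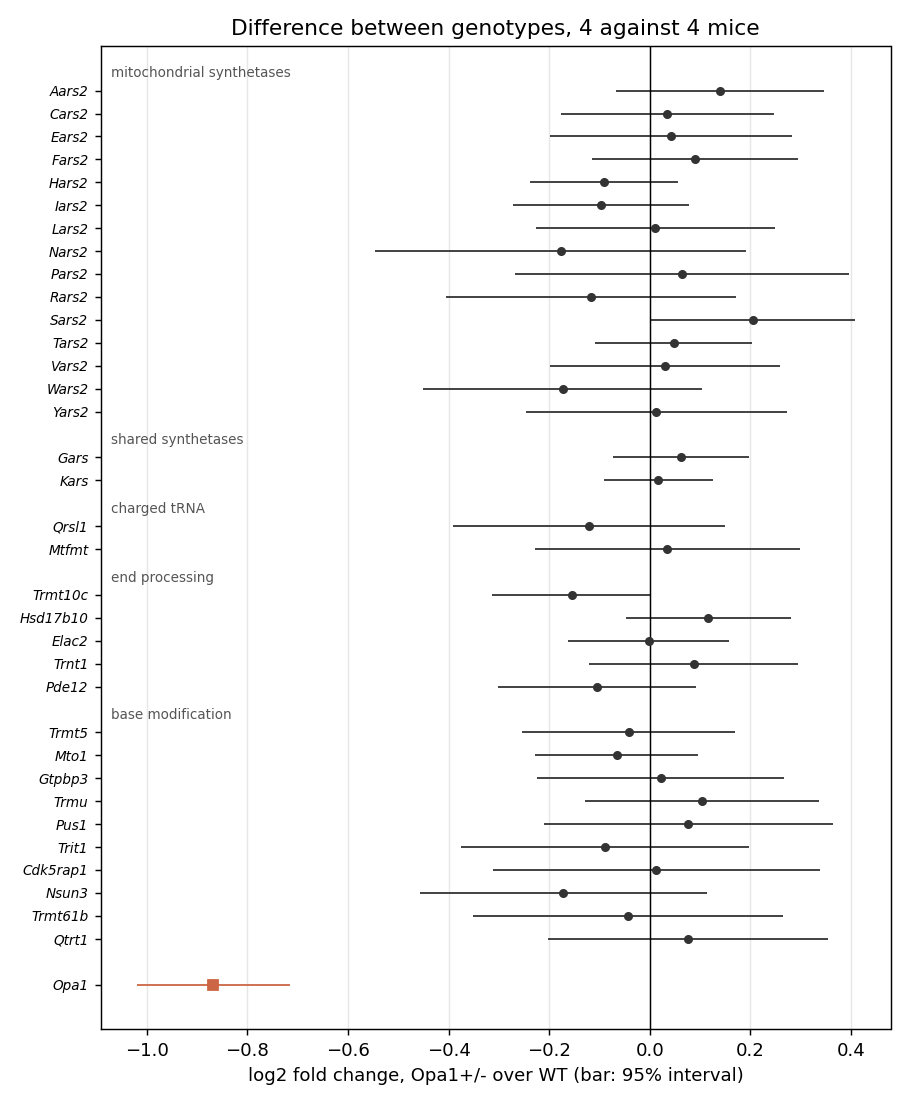
Log2 fold change of *Opa1*+/- over WT for each of the 34 enzymes, grouped by role, with *Opa1* at the bottom. Points are edgeR estimates and bars 95% intervals from 4 against 4 mice. All enzymes lie between −0.18 and 0.21, whereas *Opa1* lies at −0.87.

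*Hars2* charges the histidine tRNA *mt-Th*. Levels of *Hars2* were 20.2, 19.97, 20.6 and 21.2 CPM in WT mice 4, 5, 6 and 8 and 19.2, 17.9, 19.4 and 20.5 CPM in *Opa1*+/- mice 2, 7, A and B. The WT mice were close to each other, with a coefficient of variation of 2.72%, and only *Opa1*+/- mouse B lay inside their range. The genotypes of *Hars2* did not overlap with total counts in place of TMM, like those of 4.24% of all genes. They were also apart without *Opa1*+/- mouse B (7.34% of all genes) and without both *Opa1*+/- mice with 3-digit numbers (12.2%). Both of these follow from leaving out mouse B. The log2 fold change was −0.09 ± 0.066 (SE; 95% interval −0.24 to 0.06), with an unadjusted p of 0.193 and an adjusted p of 0.805 by edgeR. Its exons share 195 bases (4.56% of their length) with *Hars*, the cytosolic histidine enzyme that is read in the opposite direction, and *Hars* itself had a log2 fold change of 0.08.

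*Lars2* charges both leucine tRNAs and was the most abundant mitochondrial synthetase. Levels of *Lars2* were 178.9, 169.1, 130.8 and 152.1 CPM in WT mice 4, 5, 6 and 8, and 163.1, 143.5, 177.4 and 151.9 CPM in *Opa1*+/- mice 2, 7, A and B. Both groups spread over a like range and overlapped throughout. The log2 fold change was 0.01 ± 0.106 (SE), the adjusted p by edgeR was 0.987, and the 95% interval ran from a change of −14.5% to one of 18.8% against WT. *Lars2* lies on chromosome 9 from 123366927 to 123462666 on the plus strand (GRCm38) and shared no exonic base with another annotated gene.

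*Sars2*, the synthetase of both serine tRNAs, had the largest positive fold. Its values were 8.39, 7.76, 8.42 and 7.64 CPM in WT mice 4, 5, 6 and 8 and 8.87, 9.57, 9.04 and 9.64 CPM in *Opa1*+/- mice 2, 7, A and B. All *Opa1*+/- mice were above all WT mice, on 141 to 191 counts per mouse. The log2 fold change was 0.21 ± 0.090 (SE; 95% interval 0.0031 to 0.41), with an unadjusted p of 0.0472 and an adjusted p of 0.733 by edgeR. With 1 mouse left out, the unadjusted p of *Sars2* rose to at most 0.124 (without WT mouse 8) and stayed under 0.05 in 1 of 8 cases, and DESeq2 gave 0.108. *Sars2* also stayed apart between genotypes with DESeq2 size factors, total counts, library sizes without mitochondrial genes and both other filters on low counts. The remaining alternatives say little on this point. DESeq2's Wald test, voom and robust estimation used the same CPM, and leaving out mice can make separated groups overlap only through rescaling. It lies on chromosome 7 from 28741992 to 28753871 on the plus strand.

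With TMM and all 8 mice, *Trmt10c* was the only enzyme with all *Opa1*+/- mice below all WT mice. It encodes the methyltransferase subunit that mitochondrial RNase P needs and that methylates base 9. Its values were 16.3, 17.1, 15.4 and 16.3 CPM in WT mice 4, 5, 6 and 8 and 14.2, 14.2, 15.4 and 14.6 CPM in *Opa1*+/- mice 2, 7, A and B. The separation was narrow, since WT mouse 6 and *Opa1*+/- mouse A had the same value to 3 digits, and *Trmt10c* overlapped with total counts in place of TMM, under both other filters on low counts, and without WT mouse 5 or *Opa1*+/- mouse 7. The log2 fold change was −0.16 ± 0.071 (SE; 95% interval −0.31 to 0.0034), with an unadjusted p of 0.0542 and an adjusted p of 0.742 by edgeR. *Trmt10c* lies on chromosome 16 from 56032609 to 56037819 on the minus strand.

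Groups that did not overlap were thus seen for 2 of 34 enzymes (5.88%), 1 in each direction. Over all genes tested the share was 4.31%, with 1.98% higher and 2.33% lower, so that the count for the enzymes was near the background. Lists of cell type markers in which every gene went the same way are given first. Summed red cell markers held 7747 to 21467 CPM in WT and 15070 to 25057 CPM in *Opa1*+/- mice, with 8 of 8 markers higher in the mean and WT mouse 4 inside the *Opa1*+/- range. Summed Schwann cell and myelin markers held 3317 to 4509 CPM in WT and 3962 to 5383 CPM in *Opa1*+/- mice, with 7 of 7 higher in the mean. Summed muscle markers spanned 215 to 2080 CPM over WT mice and 14.6 to 1049 CPM over *Opa1*+/- mice, with 0 of 7 higher in the mean. The other lists were mixed. Markers higher in the mean numbered 2 of 9 for hair cells, 4 of 8 for spiral ganglion neurons and 2 of 8 for stria vascularis. They numbered 3 of 8 for bone, 4 of 8 for marrow and 4 of 5 for macrophages. The ranges of the genotypes overlapped for each of all these lists. Their part in the values of *Sars2* and *Trmt10c* was not tested.

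The 15 mitochondrial synthetases had a median log2 fold change of 0.030, with 10 positive and 5 negative. *Aars2*, the alanine enzyme (chromosome 17, 45506841 to 45520843), had the second largest positive fold of all enzymes, 0.14 ± 0.092 (SE), with an adjusted p of 0.790. Without WT mouse 8 the fold of *Aars2* was 0.09, below those of *Trmu* (0.18) and *Fars2* (0.10). Levels of *Aars2* were 12.3, 12.7, 14.2 and 11.5 CPM in WT mice 4, 5, 6 and 8 and 13.1, 14.9, 13.4 and 14.5 CPM in *Opa1*+/- mice 2, 7, A and B, where WT mouse 6 lay among the *Opa1*+/- mice.

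The folds of *Nars2* and *Wars2* were the most negative. *Nars2*, which charges the asparagine tRNA (chromosome 7, 96951505 to 97064758), measured 5.08, 6.35, 6.93 and 6.12 CPM in WT mice 4, 5, 6 and 8 and 6.27, 4.46, 4.58 and 6.38 CPM in *Opa1*+/- mice 2, 7, A and B. *Opa1*+/- mice 7 and A were the lowest, while the other two *Opa1*+/- mice lay within the WT range. Its log2 fold change of −0.18 ± 0.164 (SE) had an adjusted p of 0.852. *Wars2*, the tryptophan enzyme (chromosome 3, 99141068 to 99239186), measured 8.68, 7.23, 7.65 and 7.69 CPM in WT mice 4, 5, 6 and 8 and 7.10, 7.52, 7.43 and 5.62 CPM in *Opa1*+/- mice 2, 7, A and B. *Opa1*+/- mouse B was far below the rest, and the fold of −0.17 ± 0.124 (SE) had an adjusted p of 0.806. Single mice weigh on both folds. That of *Nars2* was −0.11 without WT mouse 6, −0.09 without *Opa1*+/- mouse 7, −0.10 without A and −0.27 without B, and that of *Wars2* was −0.09 without B, where *Nsun3* was at −0.13.

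The other mitochondrial synthetases stayed nearer to 0, and the lowest adjusted p among them was 0.830, for *Iars2*. Group means ± SD over 4 mice are given as WT, then *Opa1*+/-. *Rars2* (arginine) had 12.9 ± 1.68 and 11.9 ± 1.53 CPM and a log2 fold change of −0.12, and *Iars2* (isoleucine) had 62.3 ± 5.65 and 58.3 ± 3.97 CPM and one of −0.10. These were the remaining negative folds of the family. *Fars2* (phenylalanine) had 18.2 ± 1.82 and 19.4 ± 1.46 CPM (0.09 on the log2 scale), *Pars2* (proline) 3.97 ± 0.5004 and 4.14 ± 0.441 CPM (0.06), and *Tars2* (threonine) 18.7 ± 0.611 and 19.4 ± 1.20 CPM (0.05). *Ears2* (glutamate) had 5.78 ± 0.352 and 5.95 ± 0.341 CPM (0.04), and *Cars2* (cysteine) 11.1 ± 1.04 and 11.4 ± 0.569 CPM (0.035). *Vars2* (valine) had 13.2 ± 1.499 and 13.5 ± 0.917 CPM (0.03), and *Yars2* (tyrosine) 7.59 ± 0.882 and 7.66 ± 0.517 CPM (0.01). For each of these 9 genes the difference of the means was smaller than the larger SD. Exons of *Iars2* share 2034 bases, 22.9% of their length, with *Rab3gap2* on the opposite strand, so that its counts are uncertain if strand was not used.

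*Gars* and *Kars* each encode both the cytosolic and the mitochondrial form of the glycine and the lysine enzyme, so that their counts do not measure the mitochondrial form alone. *Gars* (chromosome 6, 55038007 to 55079500) measured 122.9, 112.4, 112.4 and 123.5 CPM in WT mice 4, 5, 6 and 8 and 121.6, 122.9, 118.3 and 129.0 CPM in *Opa1*+/- mice 2, 7, A and B. The genotypes overlapped, and the log2 fold change was 0.06 ± 0.060 (SE; adjusted p = 0.859 by edgeR). *Kars* was the steadiest of the 34 enzymes in WT mice, with a coefficient of variation of 2.12%, and had a log2 fold change of 0.02 ± 0.048 (SE; 95% interval −0.09 to 0.13).

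*Qrsl1* and *Mtfmt* act on tRNA that is already charged. *Qrsl1*, the subunit that turns glutamate on *mt-Tq* into glutamine, had means of 12.8 ± 1.87 CPM (WT) and 11.8 ± 1.08 CPM (*Opa1*+/-; SD, n = 4 each). *Mtfmt*, which formylates the methionine on *mt-Tm*, had means of 8.29 ± 0.841 and 8.49 ± 0.884 CPM. Their log2 fold changes of −0.12 and 0.03 were no larger than about 1 standard error, 0.120 and 0.117.

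Among the 5 enzymes of the tRNA ends the median log2 fold change was −0.0025. *Hsd17b10*, the partner of *Trmt10c* in RNase P and also an enzyme of isoleucine breakdown, had means of 32.5 ± 2.11 CPM (WT) and 35.2 ± 2.79 CPM (*Opa1*+/-; SD, n = 4 each), a log2 fold change of 0.12 ± 0.073 (SE; adjusted p = 0.785 by edgeR). The nuclease subunit of RNase P, listed under the symbol *1110008L16Rik* and taken from the wider list of tRNA enzymes, was at −0.17 ± 0.131 (SE; adjusted p = 0.825). The 3 subunits therefore had folds of −0.16, 0.12 and −0.17, none of them past the threshold. That of *Hsd17b10* was 0.058 without *Opa1*+/- mouse B and 0.041 without both *Opa1*+/- mice with 3-digit numbers. *Elac2*, which cuts the 3′ end, had 20.4 ± 1.06 and 20.4 ± 1.25 CPM (WT, then *Opa1*+/-), a log2 fold change of −0.0025, the nearest to 0 of all 34 enzymes. *Trnt1* had 27.1 ± 2.04 and 28.9 ± 3.39 CPM, a fold of 0.09. *Pde12*, which removes spurious poly(A) tails from mitochondrial tRNAs, had 13.9 ± 0.884 and 13.0 ± 0.999 CPM, a fold of −0.11.

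The 10 enzymes of base modification had a median log2 fold change of −0.014, with 5 values in each direction. *Mto1* and *Gtpbp3* together modify the wobble base of tRNAs that include *mt-Tk*, *mt-Te* and *mt-Tq*. *Mto1* had 16.4 ± 0.704 and 15.7 ± 0.790 CPM (SD, n = 4; WT, then *Opa1*+/-), a log2 fold change of −0.07, and *Gtpbp3* had 13.9 ± 1.82 and 14.1 ± 1.10 CPM, a fold of 0.02. *Trmu*, which adds sulfur to the wobble base of *mt-Tk*, *mt-Te* and *mt-Tq*, had 9.60 ± 1.03 and 10.3 ± 0.621 CPM, a fold of 0.10. None of these 3 genes passed the threshold. *Trit1* and *Cdk5rap1*, which act in turn on the adenine at base 37, had folds of −0.09 (6.80 ± 0.370 and 6.40 ± 0.966 CPM) and 0.01 (6.70 ± 1.02 and 6.76 ± 0.858 CPM). *Trmt5*, which methylates a guanine at base 37, had 9.55 ± 0.479 and 9.27 ± 0.696 CPM, a fold of −0.04. In the genome this base is a guanine in *mt-Tl2*, shown above as the letter after the anticodon, and in *mt-Tp*.

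*Nsun3*, which acts on the first anticodon base of *mt-Tm*, had the most negative fold of the group, −0.17 ± 0.127 (SE; adjusted p = 0.815 by edgeR), with 7.60 ± 0.978 CPM over WT and 6.75 ± 0.622 CPM over *Opa1*+/- mice. The fold of *Nsun3* was −0.10 without WT mouse 5. Without *Opa1*+/- mouse 2 it was −0.167, and *Trit1* was more negative at −0.195. *Qtrt1*, a subunit of the enzyme that exchanges the wobble guanine of tRNAs such as *mt-Th* for queuine, had 4.99 ± 0.341 and 5.27 ± 0.549 CPM, a fold of 0.08. *Pus1*, a pseudouridine synthase, had 7.94 ± 1.36 and 8.37 ± 0.294 CPM, a fold of 0.08, and *Trmt61b*, named for an enzyme that methylates base 58, had 4.39 ± 0.569 and 4.26 ± 0.3001 CPM, a fold of −0.04. GENCODE vM21 annotates *Trmt61b* as an antisense gene, the only one of the 34 that is not protein-coding there, so that its counts cannot be read as those of an enzyme's mRNA. *Pus1* varied most among WT mice, with a coefficient of variation of 17.1%. Exons of *Pus1* share 23.8% of their length with *Gm26515* and those of *Trmt61b* share 13.9% with *Spdya*, both on the opposite strand.

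**Figure D2:**
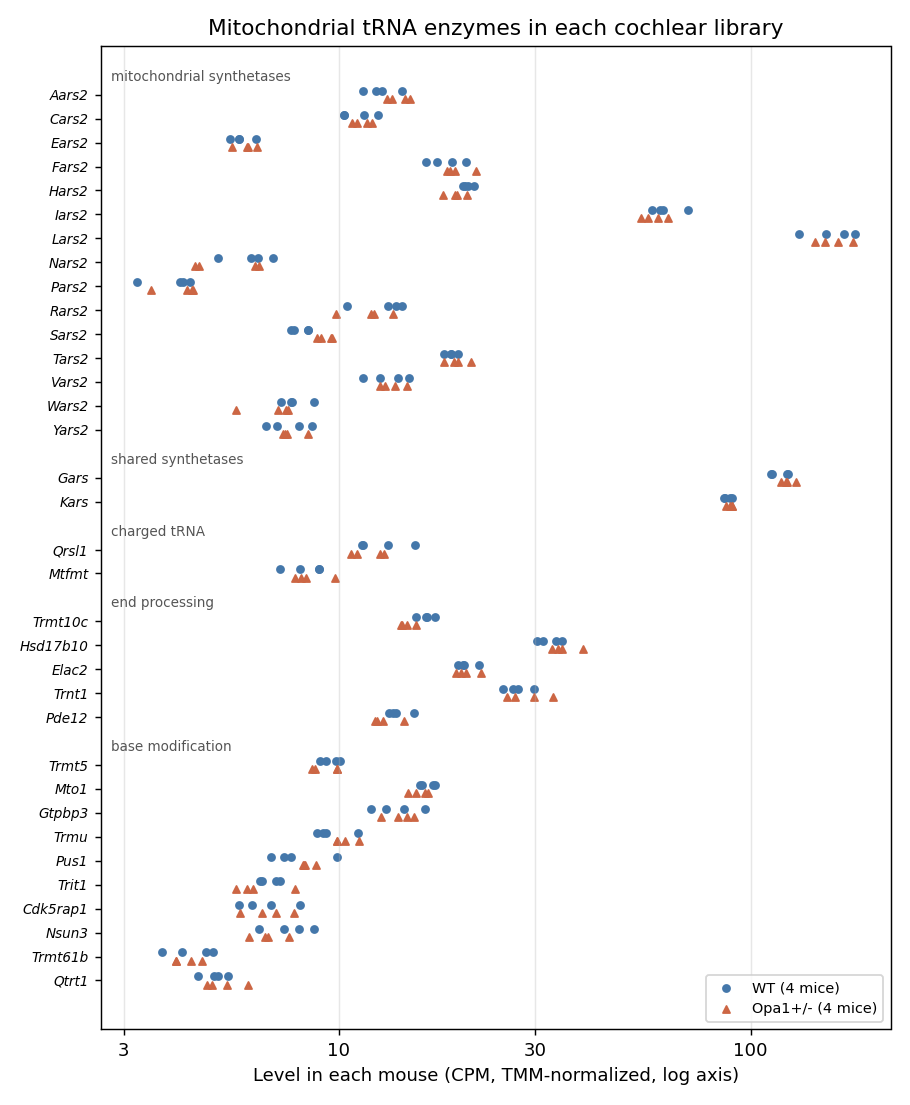
Level of each of the 34 enzymes in each mouse, in TMM-normalized CPM on a log axis, with WT mice as circles and *Opa1*+/- mice as triangles, grouped by role. The genotypes overlap for 32 enzymes, and the means over all mice run from 4.06 CPM (*Pars2*) to 158.4 CPM (*Lars2*), not divided by gene length.

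The summed level of the 34 enzymes averaged 791.9 ± 23.7 CPM over WT and 796.9 ± 10.9 CPM over *Opa1*+/- mice (SD, n = 4 each), a ratio of 1.01. *Lars2*, *Gars* and *Kars* held 46.2% of that sum, and *Iars2* brought it to 53.8%. These 4 genes were the ones above 50 CPM, while 15 enzymes lay below 10 CPM. These shares are of CPM, which also grow with the length of a gene.

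For a comparison of levels between genes, CPM were divided by exon length and given per kilobase of all annotated exons joined. *Gars* was highest at 38.6 CPM per kilobase over the 8 mice and *Nars2* lowest at 0.828. Next to *Gars* came *Hsd17b10* at 26.1, *Kars* at 19.8 and *Lars2* at 14.3, and the median of the 34 enzymes was 2.98. The exon length counts every annotated isoform, so that genes with long rare isoforms appear lower on this scale.

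The cytosolic synthetases were the closest family outside mitochondria, and 15 mitochondrial synthetases could be set beside the cytosolic enzyme or subunit for the same amino acid in 16 pairs. In 15 of 16 pairs the cytosolic gene was the higher one, per kilobase, in all 8 mice. The median ratio of cytosolic to mitochondrial level was 3.99. The widest ratio was that of *Nars* to *Nars2*, 44.6 (35.5 to 58.5 over the mice), followed by *Wars* to *Wars2* at 14.6 and *Sars* to *Sars2* at 8.79.

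Leucine was the exception. *Lars2* stood at 14.3 ± 1.52 and *Lars* at 11.9 ± 0.902 CPM per kilobase (SD, n = 8 mice), a ratio of 0.836, and it lay between 0.734 and 0.979 in single mice. *Lars2* was thus the higher gene in each of the 8 mice, although in the mouse with the ratio nearest 1 the levels were close. For *Hars* and *Hars2* the ratio was 5.98, between 4.83 and 7.07.

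**Figure D3:**
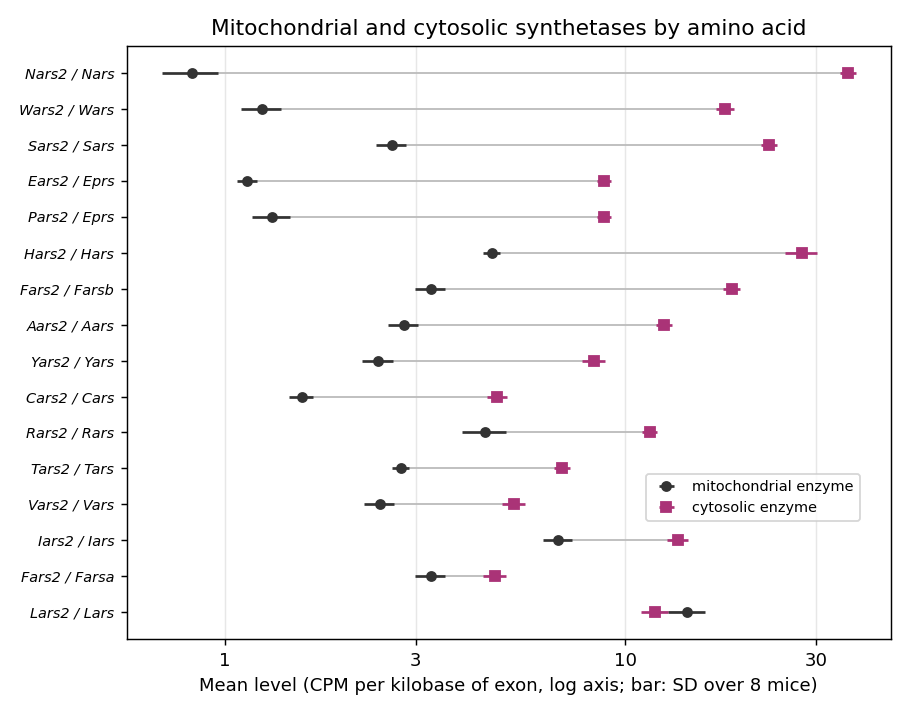
Mean level of each mitochondrial synthetase (circles) and of the cytosolic enzyme for the same amino acid (squares), in CPM per kilobase of exon on a log axis, with SD over 8 mice. Squares lie to the right of circles in every row but that of *Lars2* and *Lars*.

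The cytosolic family gave no call between genotypes either. The 18 cytosolic synthetases had a median log2 fold change of 0.019, and 0 of 18 were called after adjustment. *Mars*, the methionine enzyme, was the only one with an unadjusted p under 0.05 (5.56%, beside 6.72% of all genes; log2 fold change 0.15 ± 0.063, SE; unadjusted p = 0.0391 and adjusted p = 0.728 by edgeR). *Sars*, the cytosolic serine enzyme, was the only one that did not overlap between genotypes (5.56%, beside 4.31% of all genes), with WT mice at 110.1 to 116.2 CPM and *Opa1*+/- mice at 120.3 to 125.4 CPM. The fold of *Sars* was 0.11 ± 0.050 (SE), with an adjusted p of 0.741.

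A further 12 enzymes of mitochondrial tRNA, taken from a list of the rest of the pathway, gave a like picture. Their median log2 fold change was −0.030, with 4 positive and 8 negative, and 0 of 12 had an unadjusted p under 0.05. The lowest p was that of *Trmt2b*, a tRNA methyltransferase, with a fold of −0.13 ± 0.065 (SE; unadjusted p = 0.0775 and adjusted p = 0.758 by edgeR). *Gatb*, which forms a complex with *Qrsl1* and *Gatc*, was at 0.15 and *Gatc* at −0.0042.

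The folds of the enzymes were then set beside those of the tRNAs they charge or convert. These 2 sets of folds come from the same mice and the same fit. Of 20 pairs, 19 had a tRNA above the count minimum, while *mt-Tc*, the partner of *Cars2*, lay below it. The tRNA log2 fold changes ran from 0.69 to 2.11 and those of their enzymes from −0.18 to 0.21. Of the 19 tRNAs, 3 passed the threshold (*mt-Tv*, *mt-Th* and *mt-Tk*; adjusted p = 0.0173 for the first and 0.0309 for the other two by edgeR), and the adjusted p of the other 16 lay between 0.0701 and 0.722. In 18 of 19 pairs the whole unadjusted 95% interval of the tRNA lay above that of its enzyme. Counts per gene do not separate cut tRNA from longer transcripts that still hold it.

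*Kars* and *mt-Tk* were the farthest apart, at 0.02 (95% interval −0.09 to 0.13) and 2.11 (1.57 to 2.66). The tRNA *mt-Tk* measured 1.66, 0.879, 1.43 and 1.62 CPM in WT mice 4, 5, 6 and 8 and 6.21, 4.26, 6.19 and 7.53 CPM in *Opa1*+/- mice 2, 7, A and B. For *Hars2* and *mt-Th* the folds were −0.09 and 1.45 (1.10 to 1.80). Outside these pairs *mt-Tm*, the substrate of *Mtfmt* and *Nsun3*, also passed the threshold, with a fold of 1.31 (0.98 to 1.64; adjusted p = 0.0309 by edgeR) beside 0.03 for *Mtfmt* and −0.17 for *Nsun3*. These calls depend on single mice and on the tool. Of the 21 tRNAs tested, 4 were called with all mice, 0 without WT mouse 6, WT mouse 8 or *Opa1*+/- mouse 2, A or B, 1 (*mt-Tv*) without WT mouse 5, 8 without WT mouse 4 and 7 without *Opa1*+/- mouse 7, while DESeq2 called 17 and limma voom 9. The folds of all 21 were positive in each of these fits.

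*Lars2* has 2 partners. Its own fold of 0.01 stood beside 0.69 (0.30 to 1.08; adjusted p = 0.722 by edgeR) for *mt-Tl1*, the smallest tRNA fold, and 1.34 (0.81 to 1.87; adjusted p = 0.314) for *mt-Tl2*. The gap between the intervals of *Lars2* and *mt-Tl1* was the narrowest of the 18, at 0.06. *Sars2* and *mt-Ts2* were the pair with overlapping intervals, 0.0031 to 0.41 and 0.34 to 2.12, the latter on 7 to 42 counts per mouse. Few counts were not limited to this tRNA. Over the tRNAs of the 18 separated pairs, the lowest count in a mouse ran from 8 (*mt-Tr*) to 203 (*mt-Tl1*). For *mt-Tk* it was 18. No test of the difference between enzyme and tRNA was run beyond these intervals.

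**Figure D4:**
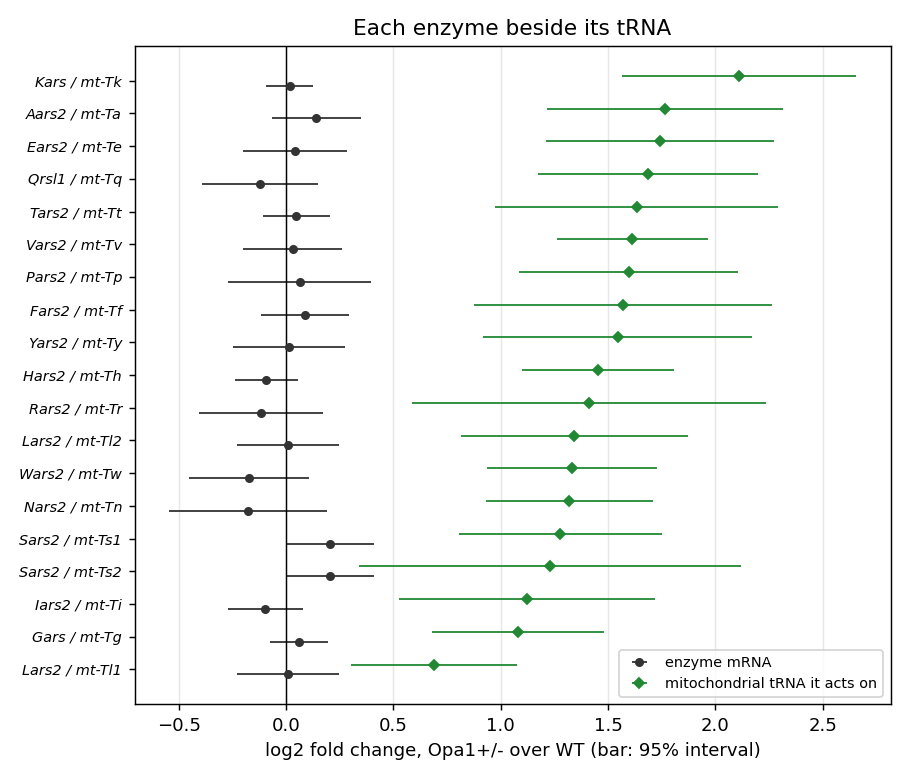
Log2 fold change of *Opa1*+/- over WT for each enzyme mRNA (circles) and for the mitochondrial tRNA it acts on (diamonds), with 95% intervals, 4 against 4 mice, in order of the tRNA fold. The enzymes lie between −0.18 and 0.21 and the tRNAs between 0.69 and 2.11, and the intervals overlap only for *Sars2* and *mt-Ts2*.

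Sharing of sequence limits some counts. Exons of 13 of the 34 enzymes share bases with another annotated gene, all on the opposite strand apart from a microRNA within *Pde12*, and 3 of them share more than 10% (*Iars2*, *Pus1* and *Trmt61b*). A stretch of at least 80 bases at 95% identity or more was found in a gene elsewhere for 9 enzymes. The longest was 671 bases, for *Trnt1*, and the next 372 bases, for *Mtfmt*. Whether the counting used strand or reads with several matches is not given in the sources used here.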

How the data were processed

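Cochlear RNA of 4 WT and 4 *Opa1*+/- mice was made into CORALL libraries by the authors, read as pairs of 80 nucleotides and mapped to GRCm38 (mm10) with STAR; molecular identifiers were used against amplification bias. The authors deposited raw counts per gene symbol for each mouse, without normalization, made with the CORALL Data Analysis Pipeline according to the study's methods; the counting program within it is not given in the sources used here. Entries with a number for a name (15) were left out.

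Genotypes came from the sample titles. The enzymes and gene lists were chosen with earlier results of these data known. Genes with a mean count above 10 after DESeq2 normalization, the minimum of the study's methods, were tested with edgeR 4.0.16 (R 4.3.3; TMM, quasi-likelihood, no robust estimation), with Benjamini-Hochberg adjustment over 19366 genes and a threshold of 0.05. SE is the absolute log2 fold change over the square root of F. Overlapping or near-identical sequence was found from GENCODE vM21 with blastn 2.17.0. Which mice share a litter is not given, and p-values measure the spread between these mice.

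Values in every mouse are given for *Hars2*, *Lars2*, each enzyme with an unadjusted p under 0.05 or groups that do not overlap, the 2 largest folds in each direction and the highest and lowest level per kilobase; tRNA values in single mice and *Sars*, *Gatb*, *Gatc* and the RNase P nuclease were added after their values were seen.

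Alternatives were DESeq2 1.42.0 (size factors, Wald test), total counts, library sizes without mitochondrial genes, limma 3.58.1 voom, robust estimation, 2 other filters, a threshold of 0.1, each mouse left out and both *Opa1*+/- mice with 3-digit numbers left out. The test was checked on simulated counts. Figures used matplotlib 3.10.9 under Python 3.11.15.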

Additional observations from a re-analysis of the deposited data

Results flagged for a closer look

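Among 84 groups of 4 mice examined (the 34 enzymes and 8 summed lists, each genotype apart), 3 held a mouse farther from the others than Dixon's 95% critical value for the gap over the range allows. Chance flags about 1 in 20 such groups, more than were found. *Pars2*, the proline synthetase, stood at 3.49 CPM in *Opa1*+/- mouse 2, while the other *Opa1*+/- mice lay from 4.27 to 4.41 CPM (gap over range 0.847). *Yars2*, the tyrosine synthetase, stood at 8.42 CPM in *Opa1*+/- mouse B (the higher-numbered of the 2 with 3-digit numbers), above 7.32 to 7.49 CPM in the others (0.847). The summed level of the 34 enzymes was 780.7 CPM in *Opa1*+/- mouse 7, below 800.7 to 803.4 CPM in the other *Opa1*+/- mice (0.883) and inside the WT range of 765.8 to 812.7 CPM. The cause of these values was not tested.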

How the results depend on the processing

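The WT mice were littermates of the *Opa1*+/- mice, but no paired analysis was possible because the litter of each mouse is not given. No enzyme was called under any of the 17 alternative fits or at an adjusted threshold of 0.1, and the lowest adjusted p of any enzyme was 0.43 (*Sars2*, limma voom). Of the 34 enzymes, 19 kept the sign of their fold in all 17, and the 15 that did not had folds of at most 0.088 in size.

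The count of all genes called was 23 with DESeq2, 10 with voom, 10 with robust estimation, 12 without a filter on low counts, 11 at a threshold of 0.1, 0 without both *Opa1*+/- mice with 3-digit numbers (565 at an unadjusted p under 0.05) and 0 to 9 with 1 mouse left out (0 without *Opa1*+/- mouse 2, 9 without WT mouse 4). Enzymes at an unadjusted p under 0.05 numbered 0 with DESeq2, with robust estimation, without a filter and without both 3-digit mice (5.62%, 6.58%, 4.54% and 2.90% of all genes), 2 with voom (5.88%, beside 10.3% of all genes), and 0 to 2 with 1 mouse left out (2 without WT mouse 6, 5.88%, beside 7.82% of all genes). Enzymes whose groups did not overlap numbered 1 without a filter and with filterByExpr (2.94%, beside 3.05% and 4.32% of all genes), 5 without both 3-digit mice, where 4 mice face 2 (14.7%, beside 12.2% of all genes), and 1 to 4 with 1 mouse left out (1 without *Opa1*+/- mouse 7, beside 8.06% of all genes, and 4, or 11.8%, without WT mouse 6 and without *Opa1*+/- mouse B, beside 9.12% and 7.34%). The median fold of the enzymes lay between −0.018 (without WT mouse 8) and 0.037 (without WT mouse 6).

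With total counts and no TMM, which moved the median of all genes to −0.028, the median of the cytosolic synthetases was −0.010 and the folds turned negative for *Cdk5rap1* (−0.013), *Gtpbp3* (−0.0067), *Kars* (−0.011), *Lars2* (−0.015) and *Yars2* (−0.013). With voom *Cdk5rap1* was at −0.011 and *Elac2* at 0.035. Without both 3-digit mice *Elac2* was at 0.056, *Lars2* at −0.041, *Mtfmt* at −0.061, *Pars2* at −0.0025, *Qtrt1* at −0.041, *Trit1* at 0.015, *Trmt5* at 0.048, *Trnt1* at −0.050, *Vars2* at −0.0073 and *Yars2* at −0.044. With 1 mouse left out, folds ran from −0.0054 to 0.092 for *Cars2*, −0.063 to 0.12 for *Cdk5rap1*, −0.041 to 0.034 for *Elac2*, −0.041 to 0.10 for *Gtpbp3*, −0.068 to 0.077 for *Lars2*, −0.036 to 0.075 for *Mtfmt*, −0.028 to 0.14 for *Pars2*, −0.11 to 0.018 for *Trmt61b*, −0.033 to 0.090 for *Vars2* and −0.049 to 0.078 for *Yars2*. The cause of these sign changes was not tested.

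*Opa1* ran from −0.90 to −0.83 with 1 mouse left out, and missed the threshold without *Opa1*+/- mouse 2 (−0.85, adjusted p = 0.0704) and without both 3-digit mice (−0.86, adjusted p = 0.26, edgeR). Depth limits *Pars2*, *Trmt61b* and *Nars2* most, whose lowest counts in a mouse were 59, 63 and 74.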
